A study of Mus musculus with 8 samples.

Results

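The Polycomb group genes described here are 10 core genes of Polycomb repressive complex 2 (PRC2: Ezh1, Ezh2, Eed and Suz12) and Polycomb repressive complex 1 (PRC1: Bmi1, Cbx2, Cbx7, Cbx8, Ring1 and Rnf2), chosen by symbol among the 20207 genes of 8 RNA-sequencing libraries. All 10 had a row in the files and all 10 were among the 12561 genes tested, those with a summed RPKM above 1 over the 8 libraries (RPKM is the reads of a gene scaled to its transcript length and to the mapped reads of the library). The libraries came from sorted mouse bone marrow cells. Long-term stem cells (LT) were CD150+CD48-CD135- within the cKit+Lineage-Sca-1+, or KLS+, gate. Short-term stem cells (ST) were CD150-CD48-CD135- within the KLS+ gate, and committed progenitors (KLS-) were cKit+Lineage-Sca-1-. Mice with chronic myeloid leukaemia (CML) carried both Tal1-tTA and TRE-BCR-ABL1, in which Tal1 regulatory sequence drives the tetracycline transactivator in blood stem cells and doxycycline (DOX) keeps the BCR-ABL1 oncogene off, and the disease was induced by withdrawing DOX for 5 weeks. The paper describes the normal mice as healthy littermates with Tal1-tTA alone. There were 2 libraries each of normal LT-HSCs and of LT-CML stem cells, and 1 each of ST-HSCs, ST-CML stem cells, normal KLS- cells and CML KLS- cells. The labels give the normal mice an age of 2 months, or 6 months for LT-HSC replicate 2, and give no age for CML mice, whereas the methods state 8 to 12 weeks at sorting. The labels name the strain C57BL/6 and the methods an FVB/N background, so whether strain or age differed between CML and normal mice is not settled. Nothing states that replicates came from separate mice, so p-values measure the spread between these libraries.

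Polycomb proteins keep genes silent through marks on histones. PRC2 methylates histone H3 through its catalytic subunit, EZH1 or EZH2, with EED and SUZ12 as the partners it needs, and PRC1 ubiquitinates histone H2A through RING1 or RNF2, reads the PRC2 mark through a CBX protein and is assembled around a PCGF protein such as BMI1. In blood, BMI1 is known for sustaining stem cell self-renewal, EZH2 is associated with dividing cells and EZH1 with resting ones, and exchange of CBX subunits is known to accompany the step from self-renewal to differentiation.

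The depth of the libraries, estimated from the steps between low RPKM values, was 17.8 to 23.9 M reads, and the 10 highest genes took 10.1 to 12.4% of the summed RPKM. Slamf1, which encodes the CD150 of the LT gate, was 10.7 to 35.5 RPKM in the 4 LT libraries and 0.955 to 2.87 in the others. Flt3, which encodes the CD135 that both stem gates leave out, was 61.6 and 71.6 RPKM in the ST libraries and 2.52 to 19.2 elsewhere. Cd48, which those gates also leave out, was 41.8 and 45.15 RPKM in the ST libraries and 174 and 129 in the KLS- libraries. It was 10.45 and 5.17 RPKM in LT-HSCs and 16.8 and 29.5 in LT-CML stem cells. The sum of 7 neutrophil genes was 4050 RPKM in LT-HSC replicate 2 and 3414 in LT-CML replicate 2. It was 536 and 234 in the other LT libraries and 118 and 1859 in the ST libraries. The make-up of the sums differed: Mpo and Ela2 (Elane) were 69.9 and 125 RPKM in LT-HSC replicate 2. They were 1291 and 1120 in LT-CML replicate 2, and 830 and 627 in ST-CML stem cells. S100a8 was 1802, 588.5 and 227 RPKM in these libraries, in the same order. Counts of members called were also taken without both replicates 2.

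The promoters of 4 members are shown: Ezh1, Ezh2 and Cbx7 because they differed in opposite directions between stem cells and progenitors, and Suz12 because it holds the same E2F letters as Ezh2. They come from the RefSeq promoter table (GRCm38.p6), run from 250 bases before to 50 after the start site, and each matched 1 place in NCBI Build 37 (mm9), the build of the deposited values. The Ezh2 and Cbx7 windows lie inside the annotated genes, whose annotation reaches farther upstream, so positions are counted from the start site of the table. Capitals mark 3 motifs known from cell cycle promoters, searched on both strands: the E2F letters TTTNNCGC, the CHR letters TTTGAA and the CCAAT box, each shown as its reverse complement where it is on the other strand.
Ezh1, chr11:101087728-101088027, minus strand, none of the 3 motifs: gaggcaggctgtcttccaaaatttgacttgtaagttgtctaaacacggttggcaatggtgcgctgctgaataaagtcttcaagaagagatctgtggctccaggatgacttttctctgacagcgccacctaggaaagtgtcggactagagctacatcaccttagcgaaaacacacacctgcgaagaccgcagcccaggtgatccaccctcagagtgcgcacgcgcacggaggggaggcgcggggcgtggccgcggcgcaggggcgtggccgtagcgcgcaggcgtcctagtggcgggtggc
Ezh2, chr6:47544980-47545279, minus strand: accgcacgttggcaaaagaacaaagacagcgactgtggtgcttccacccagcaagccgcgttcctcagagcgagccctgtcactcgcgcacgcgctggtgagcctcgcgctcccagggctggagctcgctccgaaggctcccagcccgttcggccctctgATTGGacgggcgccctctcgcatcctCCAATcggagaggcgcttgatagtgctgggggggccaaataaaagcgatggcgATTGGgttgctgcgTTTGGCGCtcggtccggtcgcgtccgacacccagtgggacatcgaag
Suz12, chr11:79806358-79806657, plus strand: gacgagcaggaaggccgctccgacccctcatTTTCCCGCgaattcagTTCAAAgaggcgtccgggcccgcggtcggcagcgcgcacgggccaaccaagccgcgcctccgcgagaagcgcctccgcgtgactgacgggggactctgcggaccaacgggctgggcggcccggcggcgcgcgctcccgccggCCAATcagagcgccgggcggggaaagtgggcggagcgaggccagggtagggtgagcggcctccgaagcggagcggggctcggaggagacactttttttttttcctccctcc
Cbx7, chr15:79763027-79763326, minus strand: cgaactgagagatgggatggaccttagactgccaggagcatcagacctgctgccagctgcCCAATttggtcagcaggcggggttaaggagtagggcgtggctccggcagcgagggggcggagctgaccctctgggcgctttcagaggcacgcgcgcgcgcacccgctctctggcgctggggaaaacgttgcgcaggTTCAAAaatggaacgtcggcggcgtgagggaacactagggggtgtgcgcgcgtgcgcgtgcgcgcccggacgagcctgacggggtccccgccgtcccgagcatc
The E2F letters were present in 5.20% of 32544 promoter windows of the table, and among the 9 members with a window they were present in Ezh2, beginning at base 4 counted from the start site, and in Suz12, beginning 219 bases before it. The CHR letters, present in 17.8% of windows, were in Eed, Suz12 and Cbx7. The CCAAT box, present in 37.4%, was in Ezh2 at 3 positions and in Eed, Suz12, Cbx7 and Cbx8. The windows of Ezh1, Bmi1, Ring1 and Rnf2 held none of these letters, which says only that they are not in these 300 bases, and Cbx2 had no window in the table.

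The 10 genes differed widely in level. By the median RPKM over the 8 libraries, which is scaled to transcript length, the order was Rnf2 (25.5), Ezh2 (19.4), Eed (17.6), Suz12 (12.2), Ezh1 (10.4), Bmi1 (3.95), Cbx7 (1.59), Cbx8 (1.25), Cbx2 (0.757) and Ring1 (0.582). Rnf2 was above 83.9% of the tested genes and Ring1 above 15.2%. The PRC2 genes and Rnf2 therefore rested on an estimated 491 to 1792 reads a library, while the values of Ring1 and the 3 Cbx genes lay on whole reads. An effective length of 2032 bases put Ring1 on 8 to 40 reads a library, and lengths of 3740, 2893 and 2786 bases put Cbx2 on 29 to 99 reads, Cbx7 on 20 to 231 and Cbx8 on 36 to 118. The counting error, which covers sampling of reads only, was thus 35.4% for Ring1 at its lowest and at most 4.51% for the PRC2 genes and Rnf2.

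**Figure D1:**
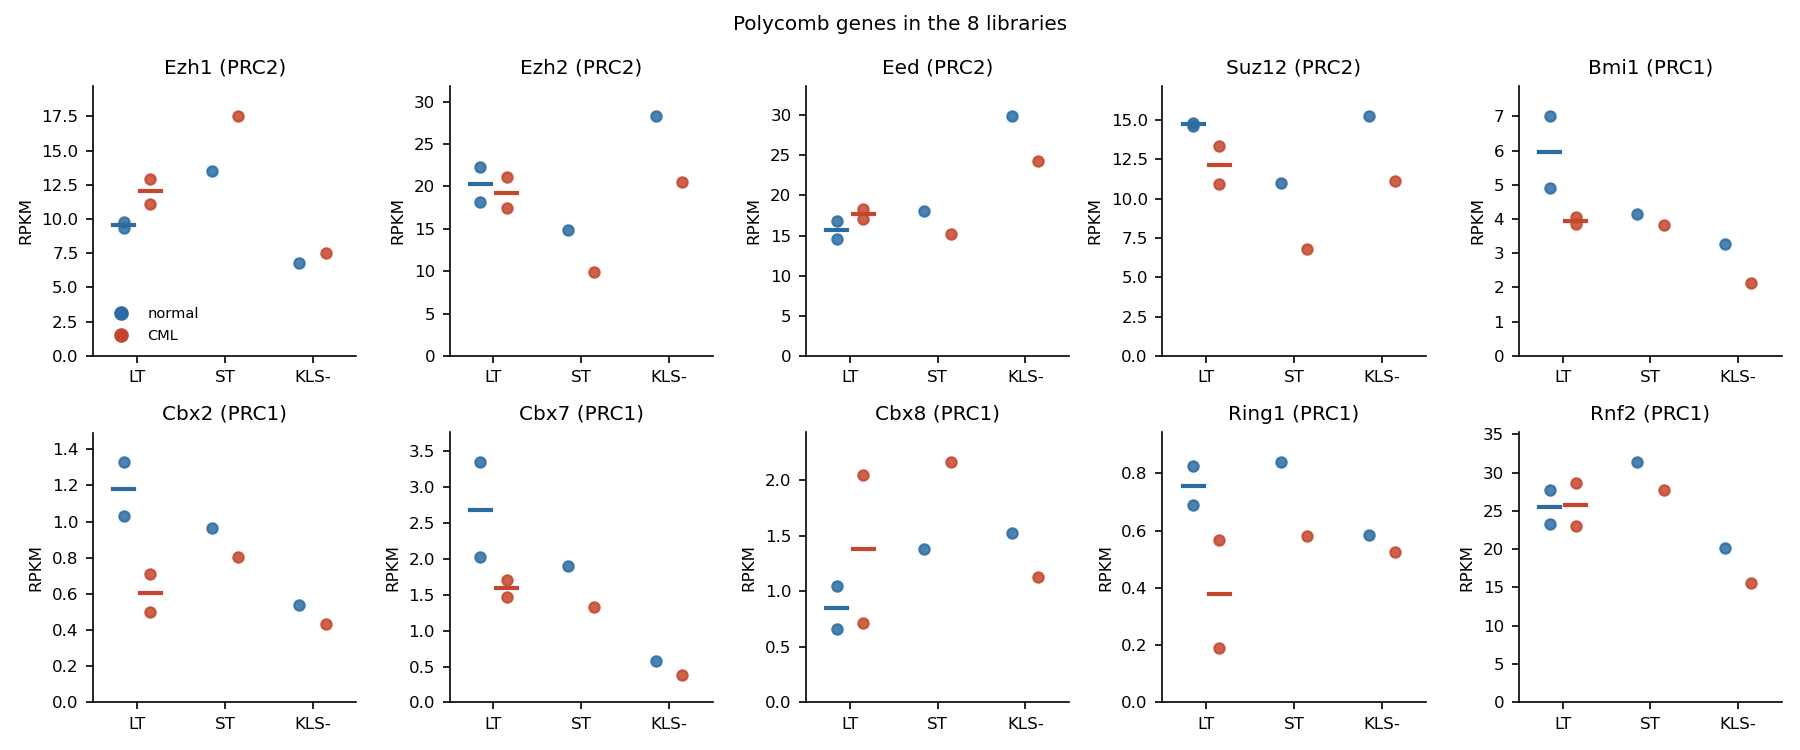
RPKM of each of the 10 genes (vertical axis, from 0) in LT, ST and KLS- cells, with 1 point per library, normal in blue and CML in red, and a short line at the mean of the 2 LT libraries of each genotype. Ezh1 was lowest in the 2 KLS- libraries (6.77 and 7.51 RPKM) and highest in the ST libraries, Eed was highest in the KLS- libraries (29.9 and 24.3), and Cbx7 was lowest in the KLS- libraries (0.580 and 0.388).

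The first comparison asked how Polycomb genes differ between committed progenitors and stem cells. It was made over both genotypes, with disease in the fit, as the KLS- libraries against the mean of LT and ST. In limma, 48.7% of all tested genes passed an adjusted p of 0.05 (22.2% higher and 26.5% lower in KLS- cells), and 6 of the 10 Polycomb genes did so. Ezh2 and Eed were higher in KLS- cells, and Ezh1, Bmi1, Cbx7 and Rnf2 were lower. The share of members called was thus near that of all genes. In bulk samples of this kind, fewer cells of a type and less RNA per cell cannot be told apart.

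Ezh1 encodes the PRC2 methyltransferase associated with non-dividing cells and lies on chromosome 11, from 101052429 to 101087777. It was 9.34 and 9.76 RPKM in LT-HSCs, 12.9 and 11.1 in LT-CML stem cells, 13.5 in ST-HSCs, 17.5 in ST-CML stem cells, 6.77 in normal KLS- cells and 7.51 in CML KLS- cells. Both KLS- libraries were thus below each of the 6 stem libraries. The mean was 7.14 ± 0.523 RPKM in KLS- cells (SD, n = 2) and 12.4 ± 3.03 in stem cells (SD, n = 6), and on log2(RPKM + 1) the difference was -0.77 (standard error 0.13, adjusted p = 0.00141 from limma). The call was made in every alternative tried, with adjusted p from 0.000813 to 0.0366.

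Ezh2, the paralog of Ezh1 with the higher methyltransferase activity, lies on chromosome 6, from 47480273 to 47545340. Its level was 22.3 and 18.2 RPKM in LT-HSCs, 17.4 and 21.1 in LT-CML stem cells, 14.9 in ST-HSCs, 9.94 in ST-CML stem cells, 28.3 in normal KLS- cells and 20.6 in CML KLS- cells. The normal KLS- library was the highest and the ST-CML library the lowest, and the CML KLS- library lay within the range of the LT libraries. The difference between KLS- and stem cells was 0.61 (standard error 0.16, adjusted p = 0.0127 from limma), but against LT cells alone it was 0.28 (adjusted p = 0.188), and it was not called without ST-CML (adjusted p = 0.0512) or without either KLS- library (0.149 without the normal and 0.0585 without the CML library). Reads of the opposite-strand lincRNA Gm17629, which overlaps Ezh2, cannot be told apart from those of Ezh2.

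Eed encodes the subunit that binds the methylated histone and stimulates the enzyme, and lies on chromosome 7, from 97103166 to 97129493. It was 16.8 and 14.6 RPKM in LT-HSCs, 18.3 and 17.1 in LT-CML stem cells, 18.0 in ST-HSCs, 15.2 in ST-CML stem cells, 29.9 in normal KLS- cells and 24.3 in CML KLS- cells. The 6 stem libraries lay close together, at 16.7 ± 1.50 RPKM (SD, n = 6), and both KLS- libraries were above all of them. The difference was 0.67 (standard error 0.15, adjusted p = 0.00537 from limma), and it was called in every alternative except without the normal KLS- library (adjusted p = 0.102).

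Suz12, the scaffold of PRC2, lies on chromosome 11, from 79806608 to 79847625. It was 14.8 and 14.6 RPKM in LT-HSCs, 10.9 and 13.4 in LT-CML stem cells, 11.0 in ST-HSCs, 6.80 in ST-CML stem cells, 15.3 in normal KLS- cells and 11.1 in CML KLS- cells. The KLS- and LT ranges overlapped, and the difference between KLS- and stem cells did not pass the test (0.25, 95% interval -0.06 to 0.57, adjusted p = 0.157 from limma). The opposite-strand lincRNA Gm16706 overlaps Suz12.

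The PRC2 enzymes can also be compared by their ratio within a library, which no linear scaling between libraries affects. Ezh2 was 4.18 times Ezh1 in normal KLS- cells and 2.74 times in CML KLS- cells. In LT cells the ratio was 1.34 to 2.38, in ST-HSCs it was 1.10, and in ST-CML stem cells Ezh1 was the higher of the pair, with 63.8% of their summed RPKM. Each of the KLS- ratios was above all 6 stem ratios, although the CML KLS- ratio was close to that of LT-HSC replicate 1.

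Bmi1 encodes the PCGF subunit of canonical PRC1 and lies on chromosome 2, from 18598645 to 18608256. It was 4.90 and 7.01 RPKM in LT-HSCs, 3.84 and 4.05 in LT-CML stem cells, 4.15 in ST-HSCs, 3.84 in ST-CML stem cells, 3.27 in normal KLS- cells and 2.12 in CML KLS- cells. The KLS- libraries were the lowest and the LT-HSC libraries the highest, LT-HSC replicate 2 standing above the rest. The difference was -0.56 (standard error 0.16, adjusted p = 0.0195 from limma). It was not called after quantile normalization (adjusted p = 0.142), nor without ST-CML (0.0777), the normal KLS- library (0.0952) or the CML KLS- library (0.161).

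Cbx7 encodes a chromodomain protein that brings PRC1 to the PRC2 mark and is known for promoting self-renewal in blood stem cells, and it lies on chromosome 15, from 79746237 to 79801549. It was 2.03 and 3.34 RPKM in LT-HSCs, 1.47 and 1.71 in LT-CML stem cells, 1.89 in ST-HSCs, 1.33 in ST-CML stem cells, 0.580 in normal KLS- cells and 0.388 in CML KLS- cells. No KLS- library overlapped the stem libraries, and the mean RPKM in KLS- cells was 0.247 of that in stem cells. This was the largest difference among the 10 genes, at -0.93 on log2(RPKM + 1) (standard error 0.16, adjusted p = 0.00176 from limma) and -1.72 on log2(RPKM + 0.1), since the value added damps the change of a low gene. It was called in every alternative (adjusted p 0.000465 to 0.0355), and its KLS- values rested on 34 and 20 reads.

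Cbx8 and Cbx2 are chromodomain paralogs of Cbx7 that are known to assemble PRC1 in differentiating cells and in early progenitors, respectively. They are neighbours on chromosome 11, with Cbx2 from 118884276 to 118892584 on the plus strand and Cbx8 from 118897619 to 118902283 on the minus strand, 5034 bases apart. Cbx8 was 1.04 and 0.661 RPKM in LT-HSCs, 2.05 and 0.710 in LT-CML stem cells, 1.38 in ST-HSCs, 2.16 in ST-CML stem cells, 1.52 in normal KLS- cells and 1.13 in CML KLS- cells. The LT-CML replicates thus spanned nearly the whole range of the libraries, and Cbx8 did not pass the test between KLS- and stem cells (-0.03, 95% interval -0.55 to 0.49, adjusted p = 0.916 from limma). Cbx2 was 1.33 and 1.03 RPKM in LT-HSCs, 0.710 and 0.499 in LT-CML stem cells, 0.967 in ST-HSCs, 0.803 in ST-CML stem cells, 0.541 in normal KLS- cells and 0.435 in CML KLS- cells. Both KLS- values were near or below the lowest stem value, and the difference was close to the threshold (-0.33, 95% interval -0.63 to -0.04, adjusted p = 0.0607 from limma). It passed under upper-quartile scaling (adjusted p = 0.0456) and without LT-CML replicate 2 (0.0387).

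Among these 3 readers, Cbx7 had its smallest shares and Cbx8 its largest shares in the KLS- libraries. A share can rise without a rise in level. The mean RPKM in KLS- cells was 0.995 of that in stem cells for Cbx8, 0.549 for Cbx2 and 0.247 for Cbx7. Cbx7 took 31.1 to 66.4% of the summed RPKM of Cbx2, Cbx7 and Cbx8 in the stem libraries, and 21.9 and 19.9% in the KLS- libraries. Cbx8 took 57.6 and 57.8% in the KLS- libraries and 13.1 to 50.2% in the stem libraries. When the paralog Cbx6 was counted too, it was the highest of the 4 in every library, at 41.2 to 59.2%. Among the 6 PCGF genes, Bmi1 took 8.67 and 7.99% in the KLS- libraries and 9.69 to 17.9% in the stem libraries, and Pcgf5 or Pcgf1 was the highest in each library.

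**Figure D2:**
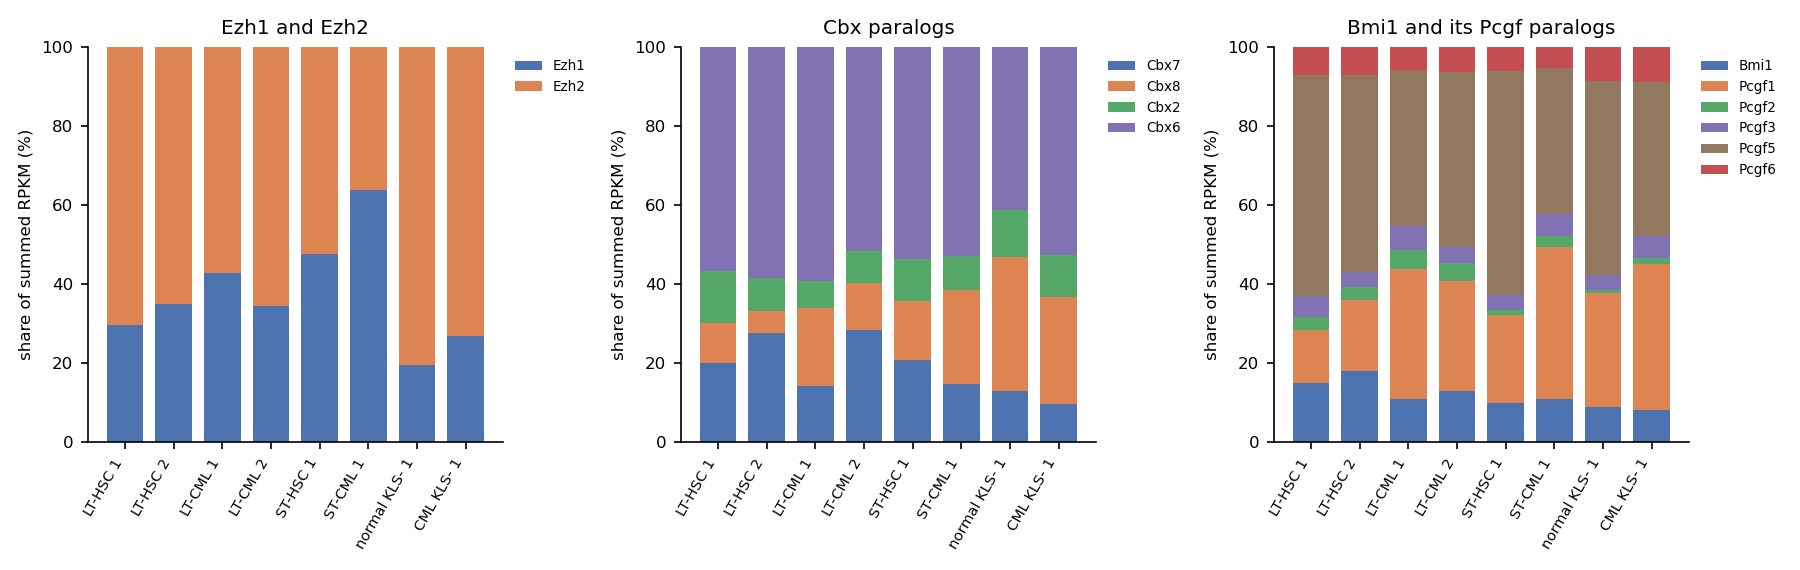
Share of the summed RPKM (vertical axis, %) held by each paralog in each of the 8 libraries, for Ezh1 and Ezh2 (left), 4 Cbx genes (middle) and Bmi1 with 5 other Pcgf genes (right). Ezh1 held from 19.3% of the pair in normal KLS- cells to 63.8% in ST-CML stem cells, and Cbx6 was the largest Cbx share in every library.

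Rnf2, which encodes RING1B, the main H2A ubiquitin ligase of PRC1, lies on chromosome 1, from 153316536 to 153347953. It was 27.8 and 23.3 RPKM in LT-HSCs, 28.6 and 23.0 in LT-CML stem cells, 31.3 in ST-HSCs, 27.8 in ST-CML stem cells, 20.2 in normal KLS- cells and 15.6 in CML KLS- cells. Both KLS- libraries were below every stem library. The difference was -0.60 (standard error 0.15, adjusted p = 0.00919 from limma), and it was called in every alternative except without the CML KLS- library (adjusted p = 0.153).

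Ring1 encodes RING1A, the paralog of RING1B, and lies on chromosome 17, from 34157737 to 34161625. It was 0.691 and 0.824 RPKM in LT-HSCs, 0.190 and 0.568 in LT-CML stem cells, 0.838 in ST-HSCs, 0.581 in ST-CML stem cells, 0.583 in normal KLS- cells and 0.525 in CML KLS- cells. Only LT-CML replicate 1 stood apart, and its value rested on 8 reads. The difference between KLS- and stem cells was not detectable at this depth (-0.06, 95% interval -0.37 to 0.24, adjusted p = 0.710 from limma). Rnf2 made up 96.6 to 99.3% of the summed RPKM of the pair in each library.

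**Figure D3:**
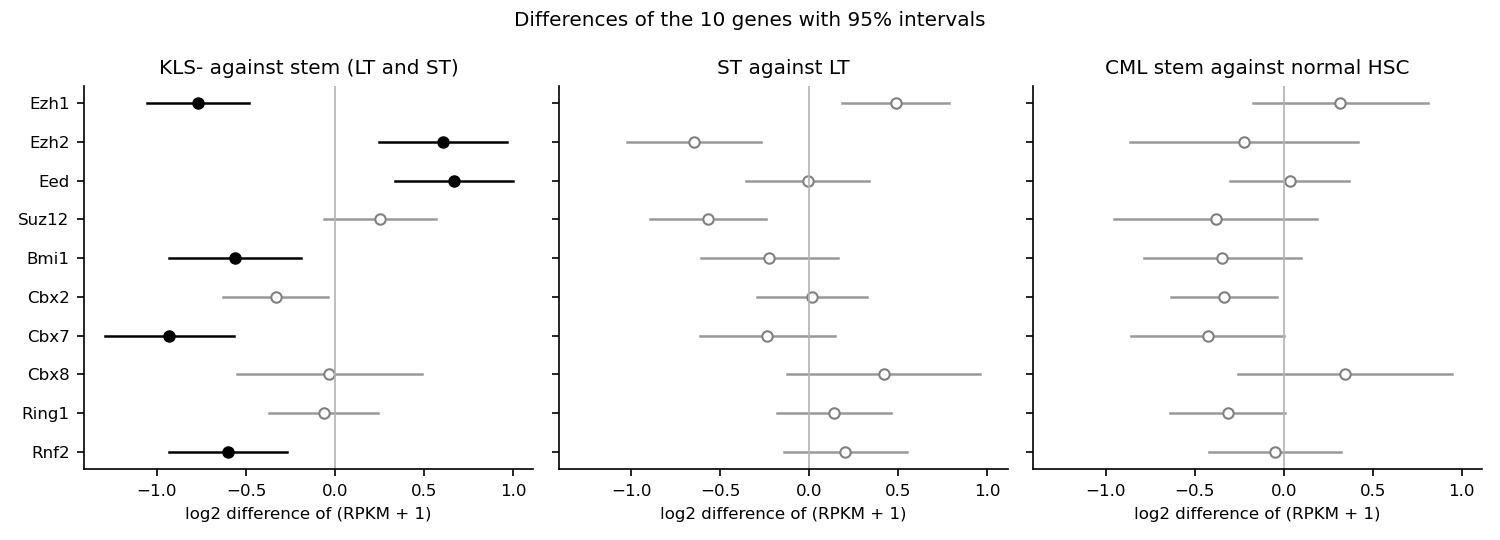
Difference on log2(RPKM + 1) (horizontal axis) of each of the 10 genes in 3 comparisons, with 95% intervals from limma, filled where the adjusted p was under 0.05. Ezh1, Bmi1, Cbx7 and Rnf2 lie to the left and Ezh2 and Eed to the right in KLS- cells against stem cells, while no gene is filled in ST against LT or in CML stem cells against normal HSCs.

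Without both replicates 2 of the LT cells, a setting chosen after seeing the data, the same 6 genes were called and Cbx2 as well. Without either KLS- library 3 genes were called: Ezh1, Cbx7 and Rnf2 without the normal library, and Ezh1, Eed and Cbx7 without the CML library. Some genes of the neutrophil, erythroid and macrophage lists were also higher in the KLS- libraries, and their part in the results was not tested. The summed neutrophil genes were 11590 and 19408 RPKM in KLS- cells against 118 to 4050 in stem cells, and nearly all of the KLS- sums was Mpo (7891 and 13120 RPKM) and Ela2 (3582 and 5672), the only 2 of the 7 that were called. Of the other 5, S100a8 differed by 0.67 and S100a9, Ngp, Camp and Ltf by -0.74 to -1.59, and the median of the list was -0.74. Of the 3 erythroid genes tested, 2 were higher (Klf1 and Car1). The 4 listed summed to 813 and 1786 RPKM against 3.56 to 93.6, and Car1 made up 804.5 and 1775 RPKM of the KLS- sums. The globin gene Hbb-b1 differed by -0.34 without passing (adjusted p = 0.776 from limma). It was 2.21 and 1.61 RPKM in the KLS- libraries and 0 to 56.3 in the stem libraries, and Hba-a1 was 0 in all 8 libraries. The sum of 4 macrophage genes was 20.5 and 18.7 RPKM in the normal and CML KLS- libraries against 0.316 to 1.52, of which Csf1r was 18.2 and 16.9. Csf1r and Emr1 were called, whereas C1qb differed by -0.24 without passing and C1qa was not tested. In all 8 libraries T cell genes summed to 0.350 RPKM or less and 4 B cell genes to 30.9 to 54.1.

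Proliferation genes moved with compartment as well. All 20 of a list of replication and mitosis genes were higher in KLS- cells than in stem cells, with a median difference of 1.22, against -0.08 over all tested genes. Their summed RPKM was 422 in ST-CML stem cells, 634 in ST-HSCs, 748 to 1117 in LT cells and 1675 and 1743 in KLS- cells. The library with the lowest sum, ST-CML, was also the lowest in Ezh2 and Suz12 and the highest in Ezh1. The library with the next lowest sum, ST-HSC, was next to it in both Ezh1 and Ezh2. The order did not hold at the other end. CML KLS- cells had the highest sum, but their Ezh2 (20.6 RPKM) and Suz12 (11.1) lay within the range of the LT libraries. Their Ezh1 (7.51 RPKM) was below every LT library. The relation is a description of 8 libraries that differ in compartment, and its part in the differences was not tested.

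**Figure D4:**
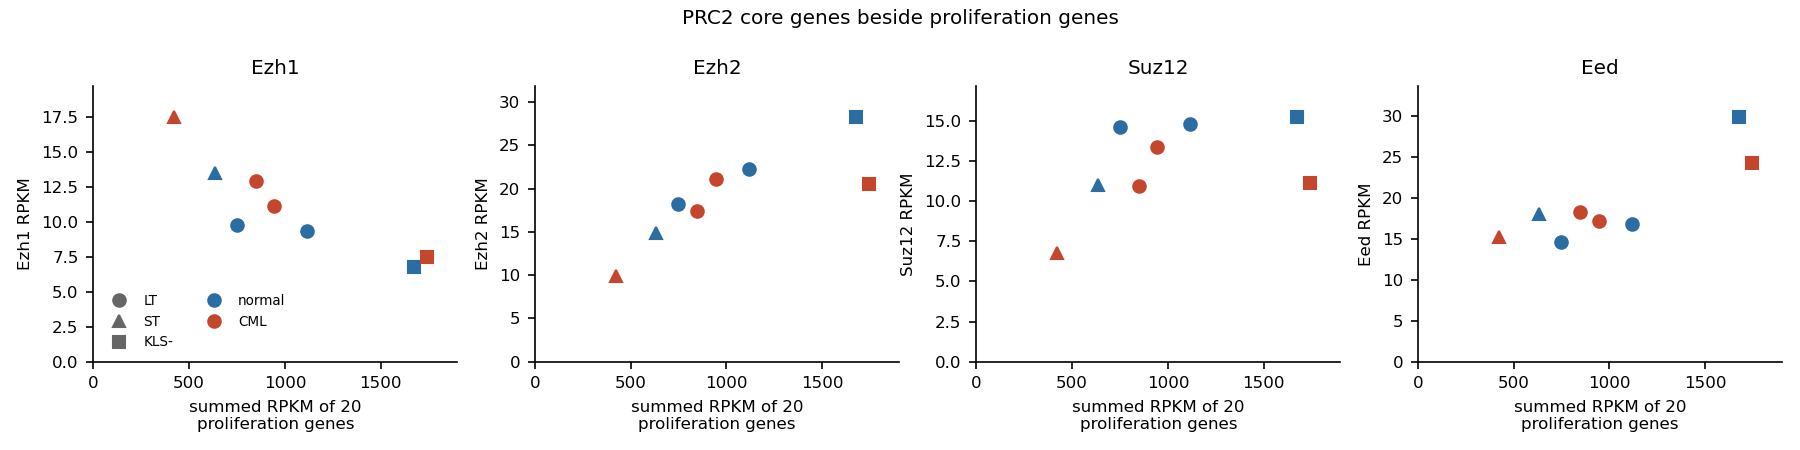
RPKM of Ezh1, Ezh2, Suz12 and Eed (vertical axes, from 0) against the summed RPKM of 20 proliferation genes (horizontal axis) in the 8 libraries, with circles for LT, triangles for ST and squares for KLS- cells, normal in blue and CML in red. Ezh1 is high where the sum is low (17.5 RPKM at a sum of 422) and Ezh2 is low there (9.94 RPKM), while Eed stands apart only in the KLS- libraries.

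The second comparison was between the stem cell populations. In ST cells against LT cells, 4.87% of all tested genes were called and none of the 10 Polycomb genes, although 3 had an unadjusted p under 0.05 in limma (19.6% of all genes did). Ezh1 differed by 0.49 between ST and LT cells (standard error 0.13, adjusted p = 0.0780 from limma). Ezh2 differed by -0.65 (standard error 0.17, adjusted p = 0.0639) and Suz12 by -0.57 (standard error 0.14, adjusted p = 0.0613), so these values stood at the edge of the threshold. Ezh1 was above each LT library in both ST libraries (11.3% of all genes were) and Ezh2 was below each (12.9% of all genes were), while Suz12 in ST-HSCs (11.0 RPKM) met LT-CML replicate 1 (10.9 RPKM).

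The call on Ezh2 and Suz12 depended on scaling. Calls rose over all genes too, from 612 to 790 under quantile normalization and 756 under upper-quartile scaling. Under quantile normalization both passed (adjusted p = 0.0351 for Ezh2 and 0.0427 for Suz12), as they did under upper-quartile scaling (0.0367 and 0.0415), and Ezh2 passed without LT-HSC replicate 2 (0.0231) or without both replicates 2 (0.0380). Without ST-CML the difference in Ezh2 was -0.47 (adjusted p = 0.468). Of the 20 proliferation genes, 12 were lower in ST cells and none higher, with a median of -1.16. All 3 megakaryocyte genes were lower in ST cells as well, with sums of 30.5 and 42.5 RPKM against 267 to 453 in LT cells. Of the sort markers, Flt3 (difference 3.04) and Ly6a (0.81) were called higher in ST cells by limma and Slamf1 (-2.83) lower. Cd48 (1.67) and Kit (0.39) did not pass. The part of these lists in the Polycomb values was not tested. The PRC1 genes and Eed lay between -0.24 (Cbx7) and 0.42 (Cbx8), with adjusted p of 0.384 or more.

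The third comparison was that of CML stem cells with normal HSCs, on which the study was built. Any difference of strain or age between CML and normal mice could not be told apart from disease. With LT and ST libraries pooled, 3 against 3, none of the 10 Polycomb genes was called in limma, where 2.34% of all tested genes were. At an unadjusted p under 0.05 there was 1 member, Cbx2, against 12.5% of all genes. The mean of Cbx2 was 0.671 ± 0.156 RPKM in CML stem cells and 1.11 ± 0.192 in normal HSCs (SD, n = 3 each), a difference of -0.34 on log2(RPKM + 1) (95% interval -0.63 to -0.04, adjusted p = 0.340 from limma). In LT cells alone, 2 against 2, none was called where 1.73% of all genes were, and Cbx2 again had the lowest unadjusted p of the members (difference -0.44, adjusted p = 0.335 from limma).

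The 3 CML stem libraries were below each normal HSC library for Bmi1, Cbx2, Cbx7 and Ring1, which is 4 of 10 genes against 11.4% of all tested genes. No member was above each normal HSC library, where 6.92% of all genes were. Bmi1 was 3.91 ± 0.121 RPKM in CML stem cells and 5.35 ± 1.49 in normal HSCs (SD, n = 3 each), and its difference was -0.35 (95% interval -0.79 to 0.09, adjusted p = 0.528 from limma). For Cbx7 the means were 1.50 ± 0.189 and 2.42 ± 0.801 RPKM (difference -0.43, 95% interval -0.86 to 0.00, adjusted p = 0.402), and for Ring1 0.446 ± 0.222 and 0.784 ± 0.0813 (difference -0.31, 95% interval -0.64 to 0.01, adjusted p = 0.411). Single libraries moved these values: without LT-HSC replicate 2 the difference was -0.17 for Bmi1 and -0.24 for Cbx7, and without LT-CML replicate 1 it was -0.18 for Ring1. The gap between the groups was small for Bmi1, 4.05 RPKM in the highest CML library and 4.15 in the lowest normal library. Some sort and cell type markers also differed between LT-CML and LT-HSC in limma: Flt3 was higher (difference 1.95, adjusted p = 0.0184), and the erythroid gene Car1 (-2.53, adjusted p = 0.00946) and the B cell gene Cd79a (-1.51, adjusted p = 0.0357) were lower. None of the 3 passed with LT and ST pooled, and their part in the Polycomb values was not tested.

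By the ratio of means within each compartment, 6 genes were lower in CML in LT, ST and KLS- cells alike, where 28.2% of all genes were: Ezh2, Suz12, Bmi1, Cbx2, Cbx7 and Ring1. For Suz12 the ratios of CML to normal RPKM were 0.825 in LT, 0.619 in ST and 0.729 in KLS- cells, and for Cbx7 they were 0.592, 0.705 and 0.669. Ezh1 was higher in CML in all 3 compartments, where 19.1% of all genes were, with ratios of 1.26, 1.30 and 1.11. Eed, Cbx8 and Rnf2 went both ways. The ST and KLS- ratios have 1 library on each side and no replicate check. In a fit of all 8 libraries with compartment as a covariate, chosen after seeing the data, none of the 10 genes was called by limma, and the lowest adjusted p was 0.0929, for Suz12 (difference -0.39).

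Whether the effect of the disease differed between progenitors and stem cells was tested as an interaction. None of the 10 genes was called in limma, where 0.0239% of all genes were, and none had an unadjusted p under 0.05, where 3.18% of all genes did. The largest value was that of Cbx8, at -0.61 (95% interval -1.69 to 0.48), and since each KLS- group has 1 library and the fit 2 residual degrees of freedom, the intervals are wide and the comparison says little about the members.

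The wider set of Polycomb genes was described by a list of 43 partners, of which 42 had a row and 41 were tested. In KLS- cells against stem cells, 4 were higher (Rbbp4, L3mbtl2, Max and Foxk2) and 15 lower, 46.3% in all, with a median difference of -0.21. This share was near the 48.7% of all tested genes (22.2% higher and 26.5% lower), so the values that follow describe single genes. The largest differences were in PRC1. L3mbtl2, a partner of the variant PRC1 complexes, was 22.9 and 32.8 RPKM in the KLS- libraries and 6.82 to 13.3 in the stem libraries, a difference of 1.32 (standard error 0.23, adjusted p = 0.00201 from limma). Phc1, whose product polymerises canonical PRC1, was 2.32 and 1.91 RPKM in KLS- and 4.50 to 8.73 in stem cells, a difference of -1.31 (standard error 0.15, adjusted p = 0.000243 from limma). Cbx6 differed by -1.02 (adjusted p = 0.00627). Of the 21 PRC1 partners, L3mbtl2 and Max were higher and 10 were lower: Phc1, Phc2, Phc3, Pcgf2, Cbx6, Scmh1, Scml2, Yaf2, Bcor and Mga.

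Outside PRC1, Kdm6b, a demethylase that removes the PRC2 mark, was 2.65 and 2.44 RPKM in KLS- cells and 4.36 to 10.5 in stem cells (difference -1.22, adjusted p = 0.00492 from limma), and the other demethylase, Kdm6a, was lower too. Phf1, an accessory subunit of PRC2, differed by -0.70 (adjusted p = 0.00154). Of the 8 PRC2 partners, Rbbp4 was higher, Jarid2 and Phf1 were lower and the other 5 were not called. In ST against LT cells, Foxk2, a partner of the H2A deubiquitinase, was the only one of the 41 called, against 4.87% of all genes: it was 1.82 and 1.26 RPKM in ST and 2.24 to 3.50 in LT libraries (difference -0.65, adjusted p = 0.0319 from limma). None of the 41 was called by limma in CML stem cells against normal HSCs, in LT cells alone or in the interaction, where 2.34%, 1.73% and 0.0239% of all genes were, so few or no calls among 41 genes is near the background.

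**Figure D5:**
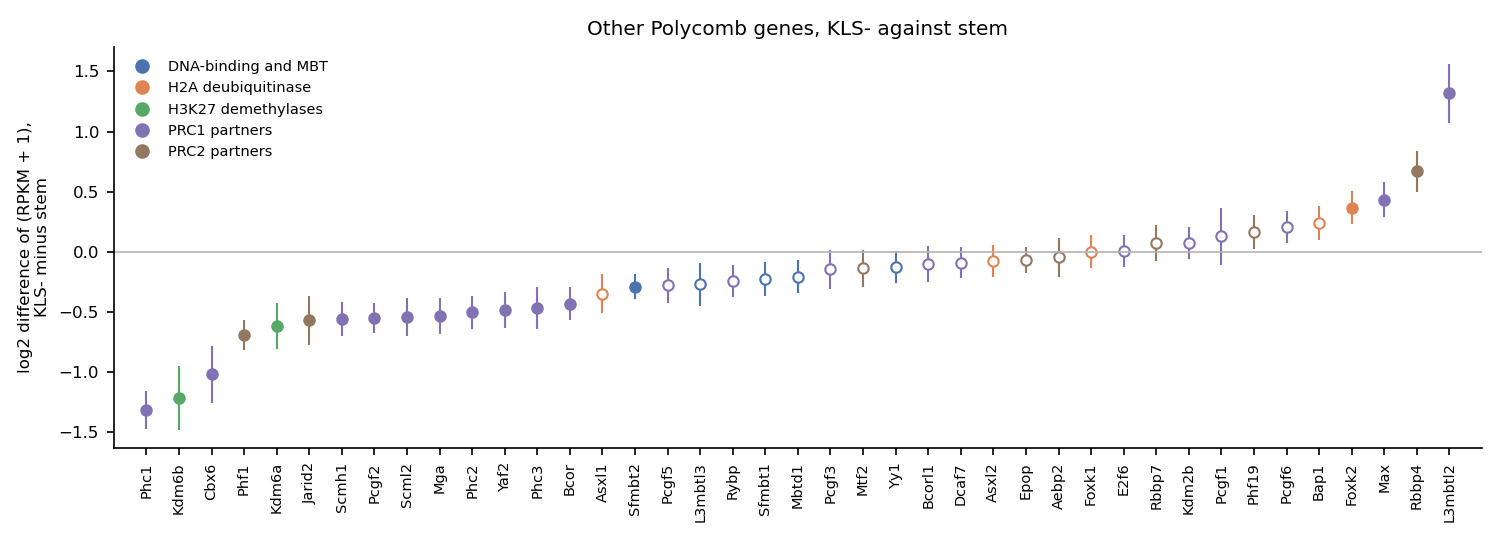
Difference between KLS- and stem cells on log2(RPKM + 1) (vertical axis) for 41 other Polycomb genes, ordered by value and coloured by class, with bars of 1 standard error from limma and filled points where the adjusted p was under 0.05. L3mbtl2 (1.32) is the highest and Phc1 (-1.31) the lowest.

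Of 6 genes known as Polycomb targets in blood cells, 3 were at or near the floor of detection. Cdkn2a, the cell cycle inhibitor locus that BMI1 is known to silence, was listed at 0 in 7 libraries and at 0.0631 RPKM, about 1 read, in ST-CML stem cells, and 3 reads would be 0.135 to 0.181 RPKM. Cdkn2b was at 0 in 6 libraries and at most 0.0789 RPKM, and Pax5 at 0 in 5 and at most 0.0888. Lin28b was at 0 in 2 libraries and reached 0.132 RPKM, an estimated 17 reads. Ebf1, a B cell factor, was 1.82 RPKM in ST-CML stem cells and 0.0220 to 0.522 in the other libraries, an estimated 2.66 to 202 reads. Hmga2 rested on an estimated 75.8 to 378 reads in each library. It was 5.28 RPKM in ST-HSCs, 2.09 to 2.80 in the other stem libraries, 2.00 in normal KLS- cells and 1.12 in CML KLS- cells, and it was called lower in KLS- cells (difference -0.69, adjusted p = 0.00985 from limma).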

How the data were processed

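Total RNA of sorted bone marrow cells was made into libraries by the authors with an ultra-low-input kit for oligo-dT primed cDNA, sequenced with 100-base reads, mapped to mm9 and deposited as RPKM for each gene and library. The gene annotation and counting rule are not given in the sources used here. RPKM are not counts, so no count test was run. Depth was estimated from the steps between low values and GENCODE M1 exon lengths on NCBI Build 37, where 91.4% of 3292 low genes lay on whole steps within 1%. Reads behind the 4 lowest members came from the length that put all 8 values nearest to whole reads. Intervals and counting errors cover these libraries and read sampling only.

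On log2(RPKM + 1), 12561 genes were fitted with limma (version 3.58.1, run in R 4.3.3; moderated by an intensity trend), p-values were adjusted by Benjamini and Hochberg's method, and 0.05 was the threshold. KLS- against stem and ST against LT came from an additive fit of disease and compartment over 8 libraries, LT-CML against LT-HSC and the interaction from a fit of 6 populations, and CML stem against normal HSC from 6 stem libraries without a covariate. Steps were tested on simulated data with 200 genes changed by 2 on the log2 scale. Of these, 87.0 to 95.0% were recovered in the other comparisons and 0% in the interaction. Unchanged genes made up 2.56 to 6.44% of the calls in the other comparisons. The changed genes had a mean log2(RPKM + 1) above 1. No member differed by as much as 2, so recovery of differences of the members' size was not tested. Alternatives changed the value added to RPKM, the filter on low genes, the scaling (quantile, upper quartile), the trend, the covariates and the libraries used. The members and lists were chosen with earlier results of these data known. The genes named are the 10 members, listed Polycomb targets, up to 5 other Polycomb genes of largest called difference in a comparison, and any count of 5 or fewer; Kdm6a, the remaining called PRC1 partners and the cell type markers were named after their values were seen. Of the 43 other Polycomb genes, Asxl3 had no row; 2 further listed genes are not reported here. Tables were processed in Python 3.11 with pandas 2.3.3.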

Additional observations from a re-analysis of the deposited data

How the results depend on the processing

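Of the 10 Polycomb genes, those called between KLS- and stem cells numbered 3 to 7 when single libraries were left out, 3 without either KLS- library, 5 under quantile normalization (Bmi1 lost) and 7 under upper-quartile scaling. In ST against LT cells 2 were called under quantile normalization and upper-quartile scaling, 0 to 1 when single libraries were left out, and 1 without both replicates 2 of the LT cells, a setting added after seeing the data. No setting called a member in the disease comparisons or the interaction. Over all genes, the 294 calls of CML stem against normal HSC became 193 without a minimum on RPKM, 543 with LT or ST as a covariate, 776 in the added fit of 8 libraries, 38 without both replicates 2 and 115 to 217 without single libraries. The 217 of LT cells became 0 without a minimum and 6 to 225 without single libraries, the 612 of ST against LT 283 and 110 to 718, the 6123 of KLS- against stem 3178 to 6338, and the 3 of the interaction 0 to 2 in every setting. The causes were not tested.

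The sign turned for the members below, none of them called, some of which were not near 0 with all libraries (0.31 for Cbx8 in LT cells, 0.25 for Suz12 between KLS- and stem cells and -0.22 for Ezh2 in CML stem against normal HSC). In CML stem against normal HSC, Eed was -0.048 in the fit of 8 libraries, -0.059 without both replicates 2 and -0.046 to 0.10 without single libraries, Ezh2 -0.44 to 0.071 without single libraries, and Rnf2 0.0080 under quantile normalization and -0.16 to 0.048 without single libraries. In LT cells, Rnf2 was -0.0049 under upper-quartile scaling and -0.14 to 0.16 without single libraries, Ezh2 -0.20 to 0.075 and Cbx8 -0.11 to 0.73. Between KLS- and stem cells, Suz12 was -0.031 against LT alone, Cbx8 0.27 under quantile normalization, 0.18 against LT alone and -0.33 to 0.26 without single libraries, and Ring1 0.24, 0.0045 and -0.19 to 0.065. In ST against LT cells, Eed was -0.13 to 0.12 and Cbx2 -0.087 to 0.12 without single libraries, and Cbx2 -0.083 without both replicates 2. In the interaction, Suz12 was -0.070 under upper-quartile scaling and -0.047 to 0.086 without single libraries. Leaving out an ST or KLS- library could give no interaction value. Depth limits Ring1 and the Cbx genes most.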

Other observations

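The LT-HSC libraries are labelled 2 months (replicate 1) and 6 months (replicate 2), with 1 library at each age, so age, replicate and the neutrophil transcripts of replicate 2 cannot be told apart. Of the 10 Polycomb genes, Cbx7 was 1.65 times and Bmi1 1.43 times as high in the 6-month library, on RPKM. Cbx8 was 0.633 times and Cbx2 0.776 times as high, and Ezh1 and Suz12 differed least, at 1.04 and 0.987 times. Between the LT-CML replicates the same ratios of replicate 2 to 1 were 1.16 for Cbx7, 1.05 for Bmi1, 0.347 for Cbx8 and 2.98 for Ring1, the last resting on 21 and 8 reads.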
